A study of Brassica napus with 8 samples.

Results

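The genes described here are the 150 whose transcript level varied least, in relative terms, between 4 tissues of rapeseed (Brassica napus). They were chosen from the deposited table of normalized levels, in which 74684 genes are listed. Genes had to reach a level of 20 in each of the 8 libraries, which 2439 genes did. For each of these the highest tissue mean was divided by the lowest, and the 150 genes with the lowest ratio were taken. Levels are CPM, which set each count against its library's total, scaled by TMM factors (TMM-scaled CPM). TMM, the trimmed mean of M values, sets 1 scale per library by treating the bulk of genes as equal between libraries. All libraries were of the cultivar Zhongshuang 11 and of polyadenylated RNA. With 2 libraries each, the tissues were young leaf, dry seed, seed germinated for 48 h and seed given as 50 DPA. No treatment or mutation is named for any of them. The germinating seed libraries carry sample numbers apart from those of the other libraries. A batch, if there was one, cannot be told apart from that tissue. The growth notes name greenhouses for vegetative tissues and a farm for organs of economic use, so growing place and organ cannot be told apart between leaf and seed. Whether both libraries of a tissue were made from different plants is not stated, so p-values and SDs measure the spread between libraries, which may be technical.

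Genes whose transcripts stay at a like level across organs are often called housekeeping genes, because many of them serve processes that every living cell runs, such as protein turnover, transcription, translation and membrane transport. Such genes are the usual source of internal references for quantitative PCR, where a target transcript is divided by 1 that is taken to be constant. Rapeseed is an allotetraploid that carries an A and a C subgenome, so many genes occur in near-identical copies. The files do not pair gene IDs with names, and 0 of the 150 IDs were found in the available gene table, made for the assembly Da-Ae. Functions, gene lengths and sequences of these genes were therefore not analysed here, nor were markers of the labelled tissues. How reads shared by near-identical copies were counted is not given in the sources used here, so the level of a single ID is uncertain to that extent.

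Total counts ran from 27635445 to 55721357 per library. The lowest count of any of the 150 genes in any library was 482, the median over genes of their lowest count was 776, and the highest count was 10880. Between 76.7% and 90.0% of the counts of these genes were even numbers, depending on the library. Whether both mates of a read pair were counted is not stated. If they were, a fragment stands for 2 counts and counting error is larger than the counts alone imply.

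On the TMM scale, most genes at the minimum level varied by 2-fold or more between tissues. The ratio of the highest to the lowest tissue mean ran from 1.1 to 1.54 in the 150 genes, with a median of 1.41. In the 2289 other genes at the minimum level the median was 3.21 and the highest ratio was 174.3. Of the 2439 genes, 502 (20.6%) stayed under 2-fold, and 1634 (67.0%) stayed under 4-fold. Among the 150 genes, 12 had a ratio under 1.2, 38 under 1.3, 71 under 1.4 and 129 under 1.5. These ratios chose the genes and are given as a description. Levels are from whole tissues, in which a change in the share of a cell type and a change in transcript per cell cannot be told apart.

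**Figure D1:**
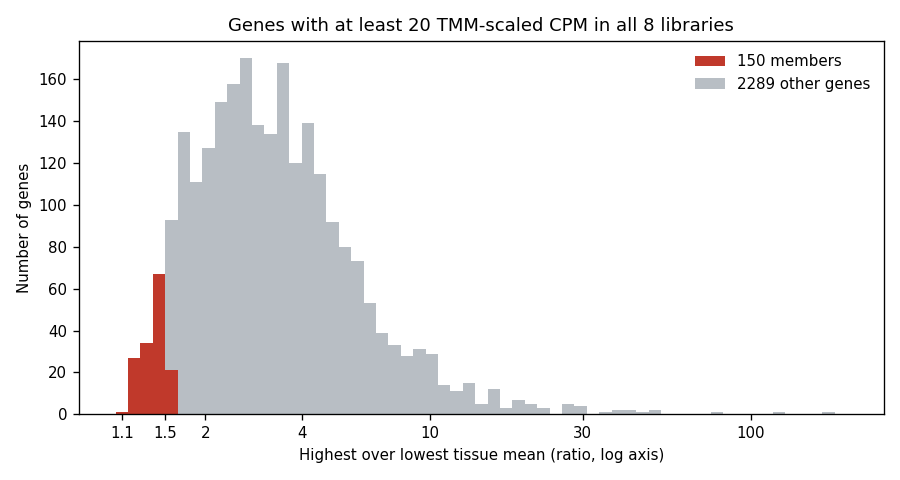
Distribution of the ratio of the highest to the lowest tissue mean (horizontal, log axis) in the 2439 genes with at least 20 TMM-scaled CPM in all 8 libraries, as numbers of genes (vertical). The 150 chosen genes (red) form the lower tail up to a ratio of 1.54, and the other 2289 genes (grey) have a median of 3.21.

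The gene with the lowest ratio was ZS11A09G019550. Its level was 24.6 and 25 TMM-scaled CPM in the leaf libraries, 25.7 and 26.1 in 50 DPA seed, 24.2 and 30.7 in dry seed, and 24.8 and 26.5 in germinating seed. The tissue ranges overlapped except that both leaf libraries lay below both 50 DPA libraries, and a single dry seed library stood above the other 7. Tissue means were 24.8 ± 0.285, 25.9 ± 0.251, 27.4 ± 4.59 and 25.7 ± 1.26 in that order (SD, n = 2), a ratio of 1.1. The dry seed libraries differed by a ratio of 1.27, more than any pair of tissues. The largest fitted change, dry seed over leaf, was 0.16 on the log2 scale (SE 0.12, 95% interval -0.12 to 0.43; edgeR).

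ZS11C03G035800 followed with a ratio of 1.15. It had 33.3 and 35.0 TMM-scaled CPM in leaf, 30.5 and 36.2 in 50 DPA seed, 39.4 and 37.4 in dry seed, and 35.5 and 37.8 in germinating seed. Dry seed was highest, and the 50 DPA libraries spanned the leaf ones. ZS11C01G002000, also at a ratio of 1.15, had 45.7 and 49.6 TMM-scaled CPM in leaf, 43.9 and 40.1 in 50 DPA seed, 44.5 and 49.2 in dry seed, and 42.2 and 40.4 in germinating seed. Leaf and dry seed were the higher pair here, and both lay above both germinating libraries. ZS11A01G032770, at 1.16, had 47.1 and 47.4 TMM-scaled CPM in leaf, 51.6 and 45.4 in 50 DPA seed, 52.0 and 56.2 in dry seed, and 48.5 and 44.8 in germinating seed. Both of its dry seed libraries lay above all others. ZS11C03G019140, at 1.16, had 25.6 and 23.6 TMM-scaled CPM in leaf, 27.5 and 26.9 in 50 DPA seed, 26.2 and 26.5 in dry seed, and 29.8 and 27.5 in germinating seed. Leaf was lowest in both libraries, without overlap with any seed stage. These 5 genes thus differed in which tissue stood highest: dry seed in 3, leaf in 1 and germinating seed in 1.

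At the edge of the choice, the values on either side were nearly equal. ZS11A03G043180, the last but one chosen, with a ratio of 1.53, had 20.7 and 20.3 TMM-scaled CPM in leaf, 33.8 and 29.1 in 50 DPA seed, 30.4 and 28.4 in dry seed, and 30.4 and 28.5 in germinating seed. Leaf was low and the seed stages overlapped. ZS11A10G028330, the last chosen, at 1.54, had 38.4 and 38.9 in leaf, 37.8 and 35.3 in 50 DPA seed, 35.6 and 39.1 in dry seed, and 57.4 and 54.8 in germinating seed. Here germinating seed alone was high. Just outside, ZS11A07G039210 stood at 21.1 ± 0.441 in leaf and 22.5 ± 0.208 in germinating seed, below 32.4 ± 2.90 in 50 DPA seed and 31.7 ± 2.72 in dry seed. ZS11C07G055750, the next gene, stood at 41.6 ± 1.22, 34.1 ± 1.67, 27.1 ± 0.906 and 28.7 ± 0.714 TMM-scaled CPM in the same order (SD, n = 2). Both had a ratio of 1.54, so the edge separates no distinct class of genes.

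**Figure D2:**
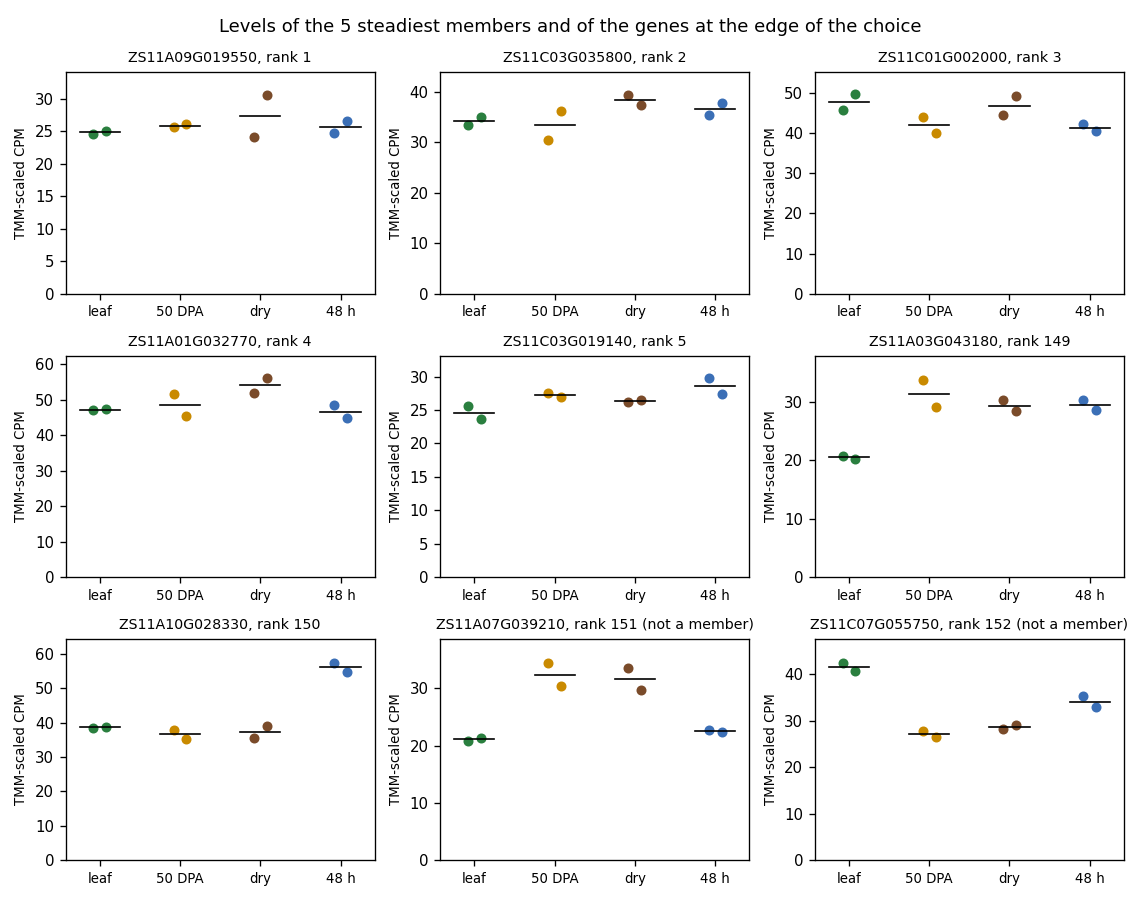
Level in TMM-scaled CPM (vertical, from 0) in each library (points) and tissue mean (black line, n = 2) for the 5 genes with the lowest ratio and for the last 2 chosen and the next 2 genes, marked as not members. The first 5 panels are nearly flat, with ratios of 1.1 to 1.16, whereas the last 4 panels each show 1 or more tissues that stand clear of the others at a ratio near 1.54.

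Levels of single libraries gave a stricter view than tissue means. The ratio of the highest to the lowest of the 8 libraries ran from 1.19 to 1.81 in the 150 genes, with a median of 1.52. All 8 libraries lay within 2-fold in 150 of 150 genes and within 1.5-fold in 68. In the other genes at the minimum level the lowest such ratio was 1.58 and the median 3.50. The choice used these same libraries and held tissue means within 1.54-fold. It thus all but fixed the count within 2-fold, and these values are a description. ZS11C01G021870 had the smallest single-library ratio among the 150, at 1.19. Its level was 42.8 and 42.5 TMM-scaled CPM in leaf, 46.6 and 44.1 in 50 DPA seed, 50.1 and 46.9 in dry seed, and 49.1 and 50.7 in germinating seed, with leaf lowest in both libraries. ZS11C02G000910 followed at 1.2, with tissue means from 37.8 ± 1.21 in leaf to 44.1 ± 0.369 in dry seed, and ZS11C09G011620 at 1.21, with means from 23.3 ± 0.206 in dry seed to 27.5 ± 0.590 in germinating seed (SD, n = 2). In these genes the libraries of a tissue differed by ratios of at most 1.07, 1.08 and 1.06.

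The largest single-library ratios among the 150 came from tissues whose 2 libraries differed. ZS11A09G034830, at 1.81, had 38.7 and 34.9 TMM-scaled CPM in leaf, 29.3 and 32.4 in 50 DPA seed, 50.4 and 35.9 in dry seed, and 29.1 and 27.8 in germinating seed. A single dry seed library set its highest value. ZS11C05G056130, at 1.74, had 29.1 and 21.3 in dry seed, against 35.9 and 36.9 in 50 DPA seed, 25.9 and 24.8 in leaf, and 31.3 and 29.3 in germinating seed. ZS11C08G039360, at 1.73, had 27.8 and 39.2 in germinating seed and 22.6 and 29.1 in 50 DPA seed, so 2 tissues had discordant libraries. Its leaf and dry seed libraries were closer, at 29.2 and 30.1 and at 35.0 and 38.0.

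The genes with the highest and the lowest mean level among the 150 are named for their place in the table. These levels are not divided by gene length, so their order is not an order of transcript number. The 5 with the highest mean level, from 102.6 to 122.5 TMM-scaled CPM, all had germinating seed highest. They were ZS11C03G069400, ZS11A03G003660, ZS11C03G023380, ZS11A04G008920 and ZS11A05G039040, with ratios of 1.35, 1.33, 1.16, 1.48 and 1.38. Leaf was lowest in 4 of them and dry seed in 1. ZS11A04G008920 rested on close libraries, with 93.3 and 95 in leaf, 118.8 and 118.2 in 50 DPA seed, 108.0 and 97.3 in dry seed, and 141.8 and 136.9 in germinating seed, without overlap between any 2 tissues. In ZS11C03G023380, by contrast, the dry seed libraries stood at 135.7 and 99.1 and spanned all others. The 5 with the lowest mean level, from 23.9 to 24.3 TMM-scaled CPM, were ZS11A06G010880, ZS11A10G000350, ZS11C02G008860, ZS11C08G023020 and ZS11C03G004890, with ratios of 1.22, 1.3, 1.31, 1.27 and 1.43. Leaf was highest in 3 of these, and 50 DPA and germinating seed in 1 each. In ZS11C08G023020 the libraries of germinating seed, 29.8 and 21.5, spanned nearly the whole range.

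Across the 150 genes, no single tissue carried the extremes, though leaf was lowest most often. Leaf was lowest in 64 genes and highest in 23, 50 DPA seed lowest in 20 and highest in 37, dry seed lowest in 33 and highest in 49, and germinating seed lowest in 33 and highest in 41. In the 2289 other genes, leaf was lowest in 50.8% and highest in 8.78%, and dry and germinating seed were highest in 40.5% and 36.0%. The commonest combinations were dry seed highest with leaf lowest (22 genes), 50 DPA seed highest with leaf lowest (21) and germinating seed highest with leaf lowest (21). The rarest were leaf highest with 50 DPA seed lowest and germinating seed highest with 50 DPA seed lowest, with 5 genes each. Measured from each gene's own mean of log2 levels, the median difference was lowest in leaf, at -0.11, and lay at 0.00089 in germinating seed, 0.045 in dry seed and 0.026 in 50 DPA seed. Single genes ran from -0.41 to 0.40 in leaf and from -0.37 to 0.44 in germinating seed, the widest spans of the 4.

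Differences between the 2 libraries of a tissue did not enter the choice directly, because the rule averaged them. Their median size on the log2 scale was lowest in leaf, at 0.059, followed by germinating seed (0.087), 50 DPA seed (0.090) and dry seed (0.14). In the other genes at the minimum level it was 0.049, 0.10, 0.086 and 0.13 in that order. The 150 genes thus had between-library differences of much the same size as the other genes. The median of mean levels was 35.3 TMM-scaled CPM in the 150 and 66.7 in the others, and lower counts carry a larger relative counting error. As the 2 sets were not matched for level, whether a low ratio goes with closer libraries was not tested. The median coefficient of variation between libraries in the edgeR fit was 0.0696 in the 150 and 0.0679 in the others. Dry seed was the tissue whose libraries differed most in 74 of the 150 genes, 50 DPA seed in 39, germinating seed in 28 and leaf in 9. In 16 genes some tissue's own libraries differed by a larger ratio than any 2 tissue means did, which held for 1 of the 2289 other genes. The low tissue ratio of the chosen genes fixes the direction of that contrast.

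The fitted differences between tissues are given as a description, since the genes were chosen for small differences in these same libraries. The fit was edgeR's quasi-likelihood test on the counts of all 8 libraries, with Benjamini-Hochberg adjusted p under 0.05 over 59062 genes, all of the 150 included. A difference over all 4 tissues was called in 118 of the 150 genes, against 93.6% of all genes tested. By pairs, 66 genes were called between 50 DPA seed and leaf (69.8% of all genes), 78 between dry seed and leaf (77.6%), and 68 between germinating seed and leaf (66.0%). Among seed stages, 61 were called between dry and 50 DPA seed (59.7%), 70 between germinating and dry seed (73.5%), and 55 between germinating and 50 DPA seed (68.8%). Because of the choice, nothing is read from these counts or from the lower shares. The sizes were small: the median absolute log2 change was 0.20 to 0.26 by pair, with a median SE of 0.10 to 0.11, and the largest of all was 0.64, for ZS11A03G043180 between 50 DPA seed and leaf. Of the 150 genes, 13 were called in no pair, 14 in 1, 28 in 2, 54 in 3, 39 in 4 and 2 in 5. With either leaf library left out, the calls against leaf fell to 32 or 34 for 50 DPA seed, 44 or 48 for dry seed, and 39 or 40 for germinating seed. A p over the threshold does not show equal levels. All 6 pairwise 95% intervals lay inside 2-fold in 150 of 150 genes and inside 1.5-fold in 29. With a highest ratio of 1.54 and SEs of this size the choice all but fixed the first of these counts, so they are no support for like levels.

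The genes chosen depended on the scale. Relative to CPM of the total count, the deposited values were multiplied by 0.822 and 0.823 in the leaf libraries, 1.43 and 1.44 in 50 DPA seed, 1.12 and 1.14 in dry seed, and 0.762 and 0.735 in germinating seed. On total counts alone the same 150 genes had ratios from 1.3 to 2.94 with a median of 2.0. They were then lowest in 50 DPA seed (126 genes) or dry seed (24) and highest in germinating seed (113) or leaf (37). Their median level on that scale was 46.5 CPM in germinating seed, 40.6 in leaf, 32.8 in dry seed and 25.4 in 50 DPA seed. For ZS11A09G019550, the gene with the lowest ratio, it was 34.3, 30.2, 24.2 and 18.0 CPM in that order. Applied to total-count levels, the rule chose 14 of the 150 again, against 128 with DESeq2 size factors and 84 with upper-quartile factors. For 50 DPA seed against leaf, the median log2 change over all genes tested was -0.20 with TMM and -1.02 on total counts, and over the 150 genes it was 0.14 and -0.68. Over all genes tested it was -0.59 and -1.07 for dry seed against leaf, and 0 and 0.11 for germinating seed against leaf. The TMM scale thus did not centre all genes tested in every pair. The 150 genes are steady relative to the TMM scale, not in their share of all transcripts counted.

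**Figure D3:**
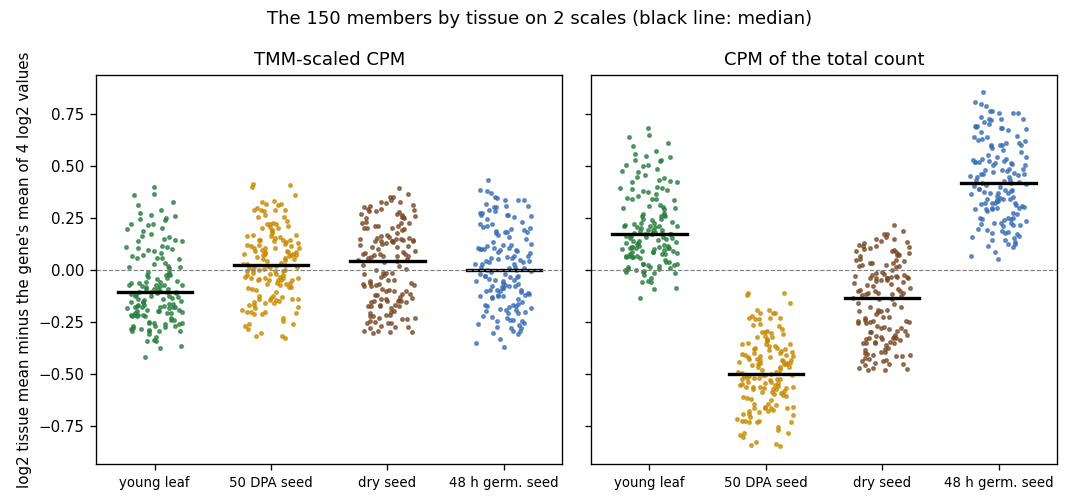
Log2 tissue mean of each of the 150 genes minus the gene's mean over the 4 tissues (vertical), by tissue, on TMM-scaled CPM (left) and on CPM of the total count (right). Black lines are medians over genes, near 0 on the left, whereas on the right 50 DPA seed is lowest in 126 genes and germinating seed highest in 113.

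The 150 genes can also serve as their own scale, which centres them. With each library divided by the median count of these genes in it, ratios of tissue means ran from 1.04 to 1.69 with a median of 1.37. As a share of all counts, the 150 genes took 0.855% ± 0.00315 in germinating seed, 0.723% ± 0.00266 in leaf, 0.564% ± 0.0218 in dry seed and 0.448% ± 0.00191 in 50 DPA seed (SD, n = 2). No 2 tissues overlapped in this share. Because the genes were chosen for like TMM-scaled levels, this order and separation largely follow from the scale factors of the libraries given above. All 2439 genes at the minimum level took 32.1% ± 0.278, 18.6% ± 0.0618, 25.9% ± 0.502 and 13.0% ± 0.207 in the same order. In that wider set dry seed stood above leaf, whereas in the 150 genes it stood below. This contrast is a description, since the choice all but fixed the order in the 150.

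Rank by count within a library does not change with the scale of that library. The median rank of the 150 among 106059 genes was 4753 and 4687 in the leaf libraries, 4690 and 4637 in 50 DPA seed, 5456 and 5850 in dry seed, and 4699 and 4739 in germinating seed. Both dry seed libraries stood apart, with the 150 genes placed lower in the order than in the other 3 tissues. By tissue mean rank, 87 genes had their lowest place in dry seed, 24 in germinating seed, 22 in leaf and 17 in 50 DPA seed, and 6 had their best place in dry seed. The choice held these genes at like TMM-scaled levels, so their rank mainly reflects how many other genes exceed that level in a library. Ranks of the other genes at the minimum level are not given here. The lower place in dry seed is therefore not read as a trait of the 150. The gene ZS11A09G019550 ranked 6637 in germinating seed, 6820 in leaf, 6881 in 50 DPA seed and 7541 in dry seed. This order differs from that of its TMM-scaled level, which was highest in dry seed.

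**Figure D4:**
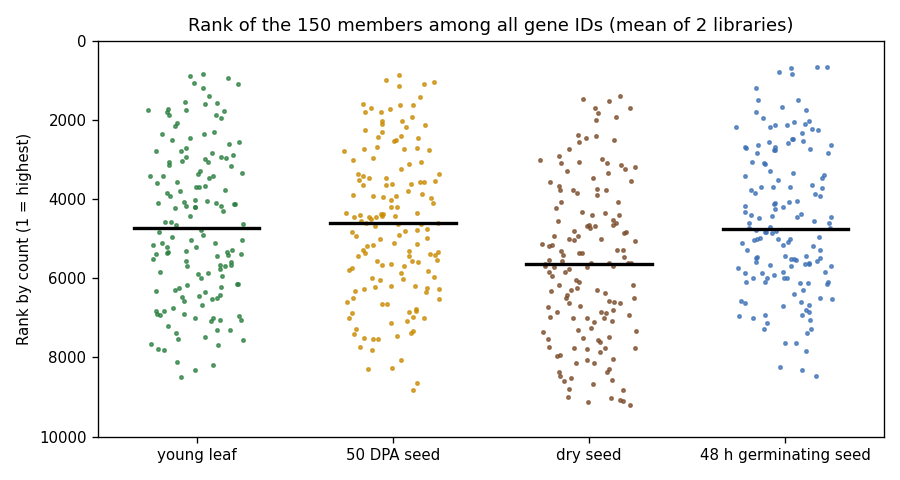
Rank by count of each of the 150 genes among 106059 genes (vertical, rank 1 at the top, mean of 2 libraries) in each tissue, with the median as a black line. The median is lower in the order in dry seed, at 5631, than in leaf (4722), 50 DPA seed (4615) and germinating seed (4755).

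The same measure could be taken in libraries that the choice had not used. Where genes were chosen on library 1 of each tissue alone, with the level of 20 required there, 2644 genes qualified and the 150 lowest ratios reached 1.51 with a median of 1.4. In the other 4 libraries these genes had a median ratio of 1.45, from 1.08 to 2.41, and 146 of 150 stayed under 2-fold. Of the 2494 genes not chosen, 15.8% stayed under 2-fold there and the median was 3.18. With the libraries swapped, 2615 genes qualified, and the median ratio of the chosen went from 1.38 to 1.48 in the unused libraries, from 1.06 to 2.11, with all but 2 under 2-fold. The 2465 others had a median of 3.30 there and 14.1% under 2-fold. Genes that qualified in the libraries used were also ranked by their ratio in the unused ones, with no minimum level required there. Of the 150 chosen, 93 and 92 were among the lowest 150 in that ranking. Most genes of low ratio in 1 set of libraries kept a low ratio in the other. By that ranking, over 50 of the 150 chosen were no longer among the lowest 150. The 2 lists held 113 and 118 of the 150 genes described here. The libraries share a TMM scale, may come from the same plants, and in most genes at the minimum level differed little within a tissue. Ratios would thus tend to repeat for genes chosen or not, so the sets are not wholly separate and the repeat is a description.

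**Figure D5:**
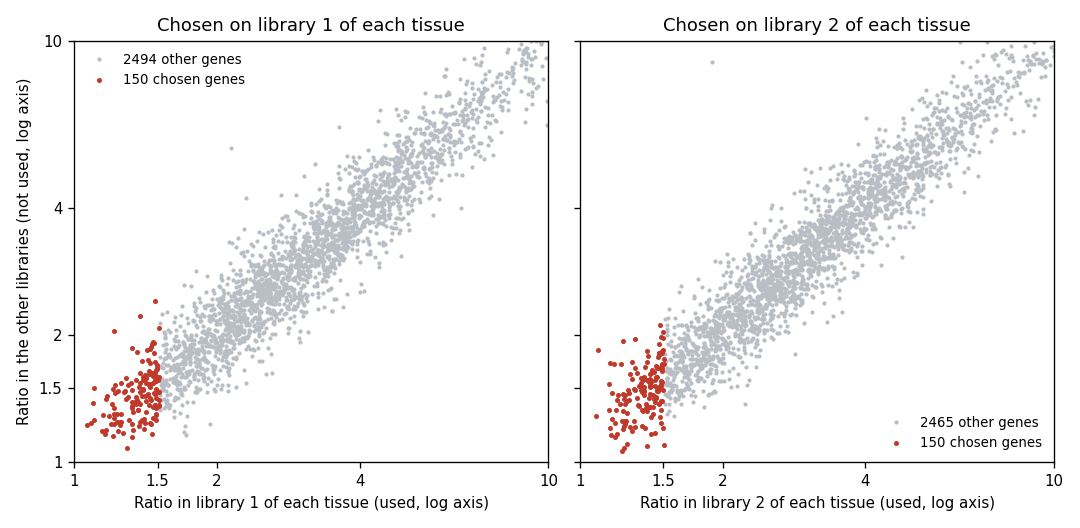
Ratio of the highest to the lowest tissue in the libraries used for the choice (horizontal) and in the libraries not used (vertical), log axes cut at 10, for genes chosen on library 1 (left) or library 2 (right) of each tissue. The 150 chosen genes (red) reach at most 2.41 on the left and 2.11 on the right in the unused libraries. The others (grey) have medians of 3.18 and 3.30 there.

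How much the list depends on the tissues was seen by leaving each out. Among the 150 lowest ratios over 3 tissues, 52 of the 150 genes were found when leaf was left out, 64 without 50 DPA seed, 46 without dry seed and 43 without germinating seed. The highest ratio among the chosen then ranged from 1.23 to 1.31, against 1.54 with all 4 tissues. Every tissue took part in setting which genes were lowest, and 2747 to 3486 genes then reached the minimum level. Leaving out a single library kept 127 to 143 of the 150, with the lowest numbers for the dry seed libraries, at 128 and 127.

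The lowest tissue mean is the denominator of the ratio, so its distribution is given only as a description. By that mean, the 150 made up 7.04% of the genes from 20 to 25 TMM-scaled CPM, 6.52% from 25 to 30, 6.11% from 30 to 40, 5.66% from 40 to 60, 4.85% from 60 to 100, and 3.45% of the 87 genes above 100. The last share rests on 3 genes, and levels are not divided by gene length. The gene IDs carry a chromosome prefix, which the rule did not use. By that prefix 67 of the 150 genes (44.7%, 95% Wilson interval 36.9% to 52.7%) belonged to A chromosomes and 83 (55.3%) to C chromosomes. Among all 2439 genes at the minimum level the shares were 49.5% and 50.4%, and among the 74684 genes listed 45.0% and 54.7%. The interval treats the genes as independent draws, and the 150 are part of both wider sets. Nothing is therefore read from the interval. All 19 chromosome prefixes held at least 1 of the genes. The highest share of the 19 was in C09, with 14 of its 153 genes at the minimum level (9.15%), and the lowest in C06, with 2 of 96 (2.08%). Over all genes at the minimum level it was 150 of 2439. These extremes were picked from the 19 and rest on few genes, so nothing is read from them.

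Places in ID order are given as a description. No 2 of the 150 had IDs that follow each other among the 106059 IDs in order. With so few genes among so many IDs, adjacent pairs would be rare for any list of this size. Nothing is therefore read from their absence. Of the 300 IDs next to 1 of them, 235 had a count in some library, as did 74684 of all 106059 IDs. Of these neighbours 5 (1.67%) reached the minimum level in all 8 libraries, near the 2.30% of all IDs. Ratios of these 5 neighbours were 3.07, 3.55, 3.57, 3.95 and 5.86. As genes at the minimum level that were not chosen, they had to exceed the last ratio chosen. ID order was taken from the IDs alone, since their coordinates were not used here.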

How the data were processed

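HISAT2 and SAMtools, along with FastQC and edgeR, are named in the submitters' processing notes. Their versions, the build, the annotation and the read counter were not given in the sources used here. The deposited counts are whole numbers for 106059 gene IDs. In the 6 libraries that the 3-tissue and 4-tissue tables share, 0 values differed. One line that names no gene was removed. The deposited TMM values are a signal normalized by the authors. For the 150 genes it equalled the count times 1 constant per library within 0.0000792.

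The rule was applied to the deposited signal with Python 3.11.15 and pandas 2.3.3. Counts were tested with edgeR 4.0.16 in R 4.3.3 (filterByExpr, TMM, quasi-likelihood fit, 1 mean per tissue, 2-sided, SE as the log2 change divided by the root of F, 95% intervals), and the fits were tested on simulated data. Alternatives used DESeq2 1.42.0, limma 3.58.1, other scales, filters, minimums and measures, and left-out libraries. The 150 genes and the measures described were chosen with earlier results of these data known. Genes named are those with the 5 lowest ratios, the 5 highest and 5 lowest mean levels, the 2 genes on each side of the edge of the choice, and the 3 smallest and 3 largest single-library ratios. The product lists and marker lists could not be applied, as no ID has a name. The edgeR intervals cover counting error and the fitted spread between libraries. The Wilson interval treats genes as draws and covers neither.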

Additional observations from a re-analysis of the deposited data

How the results depend on the processing

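Number of the 150 genes chosen again: 14 with total counts alone, 84 with upper-quartile factors, 55 with a minimum of 10, 19 with a minimum of 50, and 19 with a value above 0 as the only minimum. The lower minimums admit 6446 and 39537 genes, and a minimum of 50 leaves 433. Leaving out a tissue kept 52 (leaf), 64 (50 DPA seed), 46 (dry seed) and 43 (germinating seed), and the deposited 3-tissue table kept 48, over fewer tissues. A single library left out kept 127 to 143, and 1 library per tissue 113 and 118. The share with an A prefix was 54.7% without leaf and lay within the interval of the main value otherwise. The median ratio of the genes was 2.0 with total counts alone, 1.58 with upper-quartile factors and 1.37 with each library divided by the median count of the genes. In unused libraries it was 1.45, 1.48 for the swapped libraries and 1.52 with upper-quartile factors.

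With total counts alone in edgeR, 139 genes were called between 50 DPA seed and leaf, 117 between germinating and dry seed and 150 between germinating and 50 DPA seed, and 32 kept all 6 intervals within 2-fold. The narrower limit of 1.5-fold gave 29. Each constant factor moves all genes of a library alike. Calls against leaf with 1 library left out ran from 32 to 88 for 50 DPA seed, 44 to 82 for dry seed and 39 to 83 for germinating seed, lowest without a leaf library; the lone library was assumed to vary like the others. With the replicate block the pairs gave 51 to 70 calls and the test over all tissues 116, none moved by over 1.5 times. Same-numbered libraries deviated with correlations of -0.0086 to 0.0064 over 6 tissue pairs. The numbers thus marked no shared deviation over the genes tested, which does not show whether same-numbered libraries share plants or handling. The other 164 alternative values moved by less than these limits. For the named genes 200 values moved by less than the spread between libraries and 75 by more. That spread was the SD of the gene's ratio in library 1 and in library 2 of each tissue (n = 2). The ratio moved by more in all 25 genes with total counts alone. It did so in 20 with upper-quartile factors and in 7 with DESeq2 size factors. With a library left out, 23 values moved by more and 177 by less. The 3-tissue table, the 1.5-fold limit and the scale set by the genes themselves were added after the data were seen.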
